A study of Arabidopsis thaliana with 12 samples.

Results

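HVA22A to HVA22F are 6 genes of Arabidopsis thaliana that encode small membrane proteins of the HVA22 family. They were selected by name, with the rise of HVA22B after abscisic acid (ABA) in these arrays already known, so their responses to ABA are given as a description with no p, and the counts of members past a threshold for ABA stand only beside the share of all loci. All 6 loci were found among the 32627 loci on the arrays, represented by 7 of 37118 transcript features. Their levels are log2 expression values made by the authors with RMA, a method that corrects background, brings the arrays to a common distribution and summarises the probes of a transcript.

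The founding member, HVA22, was found in barley as a gene that ABA induces in the aleurone, the secretory layer around the endosperm of a cereal grain. ABA is the plant hormone of drought responses and seed dormancy. The family shares the TB2/DP1 domain with yeast Yop1 and the animal REEP proteins, which bend the membrane of the endoplasmic reticulum (ER) into tubules and act in vesicle traffic. In barley aleurone, HVA22 has been described as slowing the vacuolation that gibberellin triggers. For most of the Arabidopsis members an individual function is less well described than this shared one.

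RNA came from whole 10-day-old seedlings of the Col-0 cultivar, and each of 12 arrays carried 1 sample. There were 3 genotypes, each untreated and treated with 100 uM ABA for 2 h: wild type, gem1 (a line with a T-DNA insertion), and a line named GEMoe that overexpresses GEM from 35S, a viral promoter active in most plant tissues. GEM encodes a GRAM-domain protein. Each of the 6 groups had 2 biological replicates, numbered 1 and 2 in the labels. The labels name no mock treatment, so ABA and the handling that goes with it cannot be told apart. They do not say how many seedlings or independent lines stand behind a sample.

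Array medians lay between 12.16 and 12.22, and values ran from 6.99 to 15.96 with 11.4% to 11.8% of the features of each array above 15. GEM, read by 2 features, was at 14.12 to 14.48 in wild type, 14.38 to 14.61 on the arrays labelled gem1 and 15.73 to 15.81 in GEMoe by the first. By the second it was at 9.32 to 9.65, 11.16 to 11.62 and 9.38 to 11.98. In GEMoe this second feature split by replicate number, untreated and with ABA. It was at 11.36 and 11.98 on the replicate 1 arrays and at 9.56 and 9.38 on those of replicate 2. The part of this split in the GEMoe contrasts was not tested. GEM was therefore not lower on the arrays labelled gem1, and the labels do not place the insertion relative to its features. The mean of 5 leaf markers was between 14.71 and 15.10 on every array. That of 5 root markers was 13.75 to 14.09 on untreated arrays and 13.07 to 13.47 with ABA. The lowest single value was 10.62 among the leaf markers and 10.15 among the root markers. The root markers' median ABA changes were -0.66, -0.67 and -0.61 (log2, wild type, gem1 and GEMoe). Of these 0 of 5 were called lower, against 0.273% to 0.365% of all loci, and 1 of 5 in each genotype with the replicate block, against 1.83% to 2.69%. Their part in the ABA changes of the members was not tested. In RNA from whole seedlings, fewer cells of a type and less RNA per cell cannot be told apart.

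HVA22B (AT5G62490) lies on chromosome 5 at 25090130 to 25091559, forward strand, and is read by 3 probes. The array annotation gives transcript positions without exons or UTRs, and no source used here names its genome build. Its level was 9.23 and 8.83 in untreated wild type (replicates 1 and 2) and 12.50 and 13.15 with ABA. On the arrays labelled gem1 it was 10.28 and 8.41 untreated and 12.69 and 12.99 with ABA. In GEMoe it was 8.75 and 8.98 untreated and 12.88 and 13.32 with ABA. Every ABA-treated array was above every untreated one, and the replicate 1 array of untreated gem1 stood 1.05 above its wild-type counterpart while the replicate 2 array stood 0.42 below its own.

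The ABA change of HVA22B was 3.79 ± 0.54 on the log2 scale in wild type (SE, n = 2 against 2), or 13.9-fold. The SE of this and the other ABA changes is from the fit without the replicate block, unless stated. The change of HVA22B was 3.50 ± 0.54, or 11.3-fold, on the arrays labelled gem1, and 4.24 ± 0.54, or 18.9-fold, in GEMoe. Among the 32627 loci it ranked 39, 56 and 28 by the size of the rise in these genotypes. The gem1 value rested in part on the high untreated array: without it the change was 4.43, and without the other untreated array it was 2.56.

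HVA22D (AT4G24960) lies on chromosome 4 at 12827937 to 12829243, forward strand, and has 2 transcript features of 3 probes each. In Arabidopsis, silencing of HVA22D has been linked to enhanced autophagy and impaired flower development. By its brighter feature it was at 15.15 and 13.81 in untreated wild type and at 15.81 and 15.67 with ABA. On the arrays labelled gem1 it was at 14.81 and 13.41 untreated and at 15.84 and 15.75 with ABA. In GEMoe it was at 14.80 and 13.38 untreated and at 15.68 and 15.77 with ABA. The 6 ABA-treated values were above all untreated ones and close together, and they lay near the highest value on any array, 15.96. Untreated, the replicate 2 array was the lower one in every genotype.

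The ABA change of HVA22D was 1.26 ± 0.62 in wild type (log2, SE, 0.44 with the replicate block), 1.68 on the arrays labelled gem1 and 1.63 in GEMoe. It rested on which untreated array was used: without replicate 2 of the untreated group it was 0.59, 0.98 and 0.92 in these genotypes, and without replicate 1 it was 1.93, 2.38 and 2.34. The second feature gave 1.36, 1.90 and 1.97 (SE 0.57).

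HVA22E (AT5G50720), on chromosome 5 at 20633193 to 20634552 on the reverse strand and read by 3 probes, showed the same separation by treatment. It was at 12.94 and 12.11 in untreated wild type and at 13.74 and 13.63 with ABA. On the arrays labelled gem1 it was at 12.71 and 11.91 untreated and at 13.93 and 13.63 with ABA. In GEMoe it was at 12.85 and 12.03 untreated and at 13.87 and 13.19 with ABA. The lowest ABA-treated array was above the highest untreated one, and replicate 2 was below replicate 1 in all 6 groups. The ABA change was 1.16 ± 0.42 in wild type (log2, SE, 0.19 with the replicate block), 1.47 on the arrays labelled gem1 and 1.09 in GEMoe, or 2.23-, 2.77- and 2.13-fold. Without replicate 2 of the untreated group it was 0.74, 1.07 and 0.68.

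**Figure D1:**
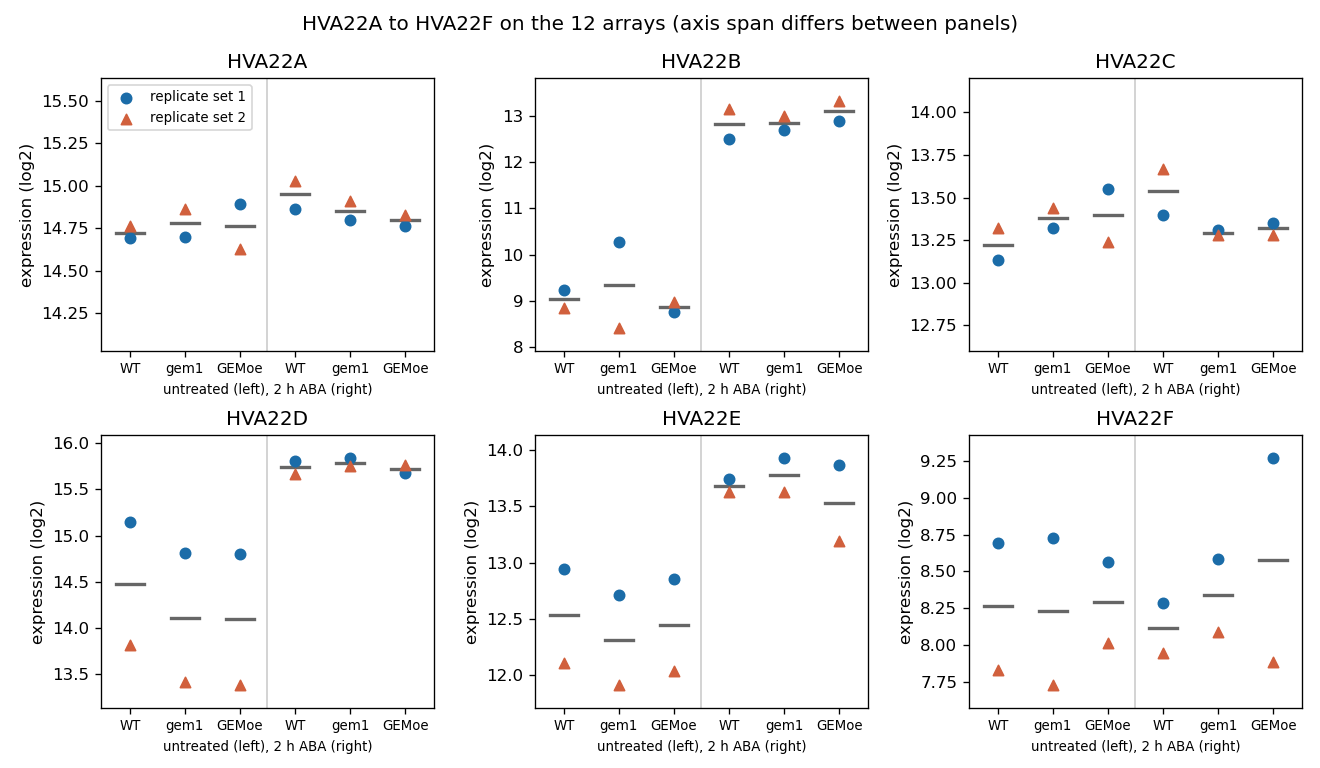
Log2 RMA value (vertical axis) of HVA22A to HVA22F on each of the 12 arrays, by genotype and treatment (horizontal axis), with points for single arrays by replicate set, lines for the mean of 2 and a different axis span in each panel. HVA22B, HVA22D and HVA22E are higher on all 6 ABA-treated arrays than on all 6 untreated ones, and the untreated points of HVA22D and HVA22E lie apart by replicate set.

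HVA22A (AT1G74520, chromosome 1, 28007974 to 28009300, reverse strand, 4 probes) stayed within 0.40 over the 12 arrays. Its values were 14.69 and 14.76 in untreated wild type and 14.86 and 15.03 with ABA, 14.70 and 14.86 in untreated gem1 and 14.80 and 14.91 with ABA, and 14.89 and 14.63 in untreated GEMoe and 14.76 and 14.83 with ABA. Every group overlapped its neighbours in the order of means, while both arrays of ABA-treated wild type were above those of untreated wild type and of ABA-treated GEMoe. Its ABA changes were 0.22 ± 0.12 in wild type (log2, SE), 0.07 on the arrays labelled gem1 and 0.04 in GEMoe.

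HVA22C (AT1G69700, chromosome 1, 26220238 to 26221825, forward strand, 4 probes) varied by 0.55 in all. It was at 13.13 and 13.32 in untreated wild type and 13.40 and 13.67 with ABA, at 13.32 and 13.44 in untreated gem1 and 13.31 and 13.28 with ABA, and at 13.55 and 13.24 in untreated GEMoe and 13.35 and 13.28 with ABA. Again every group overlapped its neighbours in the order. Both arrays of ABA-treated wild type were above those of untreated wild type and of both other ABA-treated groups. Nothing is read from this separation either, as its share over all loci was not computed. The ABA changes were 0.32 ± 0.14 in wild type, -0.09 on the arrays labelled gem1 and -0.08 in GEMoe (log2). The highest array of both HVA22A and HVA22C was the replicate 2 array of ABA-treated wild type, and without it the wild-type ABA change was 0.14 for HVA22A and 0.18 for HVA22C. On that array the mean of 9 seed storage and oil body markers was 12.14, the highest of the 12, against 9.34 to 11.08 on the others, and the part of these transcripts in the 2 values was not tested.

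HVA22F (AT2G42820, chromosome 2, 17817338 to 17818545, reverse strand, 4 probes) was among the dimmest 8.11% of loci by its mean. It was at 8.70 and 7.83 in untreated wild type and 8.29 and 7.95 with ABA, at 8.73 and 7.73 in untreated gem1 and 8.59 and 8.09 with ABA, and at 8.57 and 8.02 in untreated GEMoe and 9.27 and 7.89 with ABA. Replicate 2 was below replicate 1 in all 6 groups, and treated and untreated arrays overlapped. Its ABA changes were -0.15 ± 0.54, 0.11 and 0.29 in the 3 genotypes (log2, SE, 0.24 with the replicate block, wild type first).

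Within each gene, the 6 group means were put in order. For HVA22B the order from the top was GEMoe, gem1 and wild type with ABA, followed by gem1, wild type and GEMoe untreated. For HVA22D and HVA22E it was gem1, wild type and GEMoe with ABA. Untreated wild type came next for both, before gem1 and GEMoe for HVA22D and before GEMoe and gem1 for HVA22E. In these 3 genes the only neighbouring groups whose arrays did not overlap were the lowest treated and the highest untreated group. For HVA22A, HVA22C and HVA22F every pair of neighbours in the order overlapped.

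Thus 3 of 6 members had all 6 treated arrays above all 6 untreated ones, as had 6.14% of all loci. A limma fit of the 6 groups, with p-values adjusted by Benjamini-Hochberg over all 32627 loci, called loci at an adjusted p under 0.05. For ABA this is no test of the members, which were selected with that response in view, and nothing is read from their counts. Of all loci 1.06%, 1.18% and 1.19% were past the threshold and higher with ABA in wild type, gem1 and GEMoe, and 1 of 6 members, HVA22B, was among them in each genotype. In the fit with the replicate block the shares were 3.33%, 3.72% and 3.50% of loci, and 2 of 6 members, HVA22B and HVA22E, were among them. The median ABA change of the 6 members was 0.74, 0.79 and 0.69 (log2), against -0.02, -0.06 and -0.01 over all loci.

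**Figure D2:**
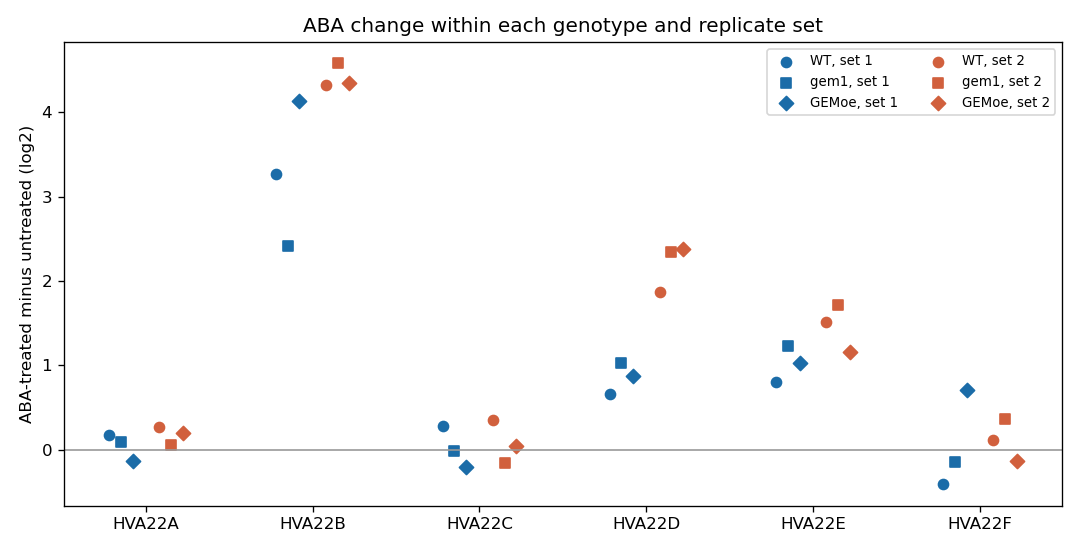
ABA-treated minus untreated log2 value (vertical axis) of each member, with 1 point for each pair of arrays of the same genotype (symbol) and replicate number (colour). HVA22B lies between 2.41 and 4.58, HVA22D between 0.66 and 2.38 and HVA22E between 0.80 and 1.71, while the pairs of the other members lie between -0.41 and 0.70.

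Whether the levels of the family differed between gem1 or GEMoe and wild type was tested in contrasts that had no part in choosing it. GEM itself was not lower on the arrays labelled gem1, so the gem1 contrasts are not shown to test a loss of GEM. In limma, 0 of 6 members were called between gem1 and wild type or between GEMoe and wild type. This held in untreated seedlings, with ABA and over both treatments. Over all loci 0% were called in each of these contrasts, except for 0.00306%, a single locus, between GEMoe and wild type over both treatments. The fit with the replicate number as a block gave the same counts for the members and the same percentages. Both comparisons use the same wild-type arrays.

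Averaged over both treatments, HVA22B differed from wild type by 0.17 on the arrays labelled gem1 (log2, 95% interval -0.75 to 1.08, with the replicate block) and by 0.05 in GEMoe (-0.86 to 0.97). HVA22D differed by -0.16 (-0.88 to 0.57) and -0.20 (-0.93 to 0.53). HVA22E differed by -0.06 (-0.38 to 0.26) and -0.12 (-0.44 to 0.20). The intervals of HVA22B and HVA22D thus reach past 0.5 on both sides, so that this fit could not tell a difference of that size from none. Those of HVA22A, given next, stay between -0.25 and 0.17. The fit takes 1 shift between replicate numbers for both treatments, whereas that of HVA22D differed between them (given below), which widens its intervals. By pairs of the same number, untreated HVA22D differed from wild type by -0.33 and -0.39 in gem1 and by -0.35 and -0.42 in GEMoe. With ABA the pairs differed by 0.03 and 0.08 in gem1 and by -0.13 and 0.10 in GEMoe. These pairs were not tested in a fit with a shift for each treatment.

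For HVA22A the differences were -0.02 (-0.21 to 0.17) in gem1 and -0.06 (-0.25 to 0.13) in GEMoe. For HVA22C they were -0.04 (-0.28 to 0.19) and -0.02 (-0.26 to 0.21). For HVA22F they were 0.10 (-0.30 to 0.49) and 0.25 (-0.15 to 0.64). Over the 4 pairs of arrays that share treatment and replicate number, no member was higher or lower than wild type in all 4, in either line. The share of all loci with such a pattern was not computed, so nothing is read from its absence.

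The interaction of genotype and ABA asks whether a line responded to the hormone by a different amount. In limma 0 of 6 members were called for either line, and 0% of all loci were called. For HVA22B the response differed from that of wild type by -0.30 on the arrays labelled gem1 (log2, 95% interval -2.13 to 1.53, replicate block) and by 0.45 in GEMoe (-1.38 to 2.28). For HVA22D the differences were 0.42 (-1.04 to 1.88) and 0.37 (-1.09 to 1.83), and for HVA22E 0.31 (-0.33 to 0.95) and -0.06 (-0.70 to 0.58). These intervals are wide beside the responses of HVA22D and HVA22E themselves. For HVA22C, whose wild-type ABA change was positive and those of both lines slightly negative, the differences were -0.40 (-0.87 to 0.07) and -0.40 (-0.87 to 0.08).

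**Figure D3:**
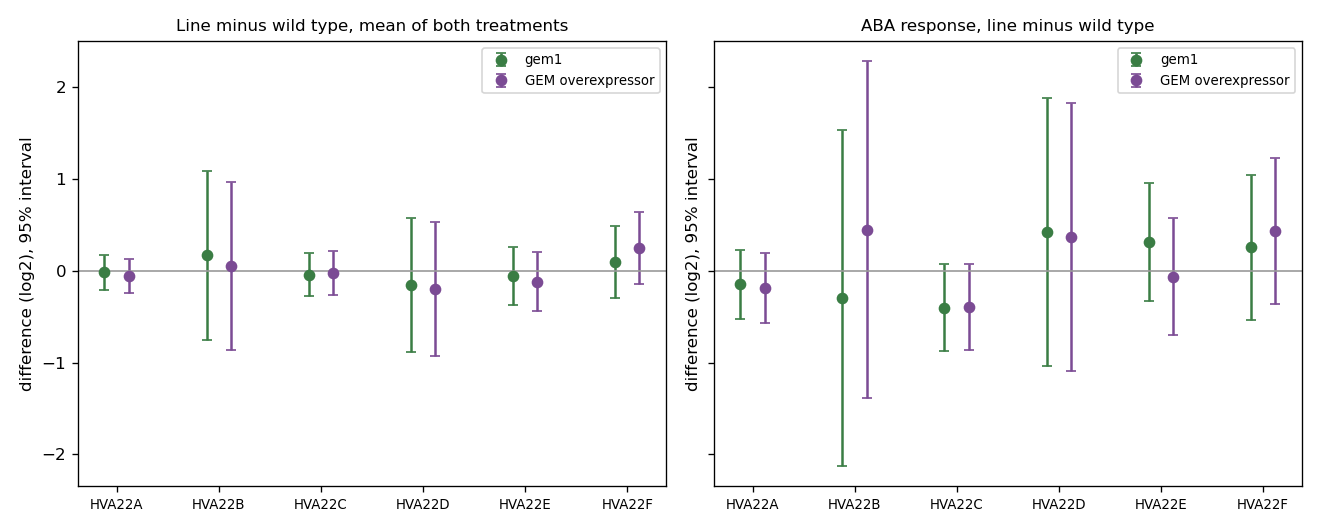
Difference from wild type in log2 value (vertical axis) of each member for gem1 and GEMoe, as the mean of both treatments (left panel) and for the ABA response (right panel), with 95% intervals from the limma fit with the replicate block. All intervals include 0, and those of the ABA response of HVA22B and HVA22D are the widest.

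The replicate numbers form a second axis of these arrays. The labels do not say what the samples of a replicate set share. Over the 6 groups, with group as a term in limma, HVA22E was lower in set 2, with a difference of -0.59 ± 0.11 (log2, SE, adjusted p = 0.00594), as was HVA22F, with -0.77 ± 0.14 (adjusted p = 0.00512). HVA22D, at -0.72 ± 0.25, missed the threshold (adjusted p = 0.0517) and was lower in 5 of 6 groups. The differences of HVA22A, HVA22B and HVA22C were 0.05, -0.11 and 0.03. So 2 of 6 members were lower in set 2 by the test, where 21.0% of all loci were lower and 26.1% higher, and the same 2 of 6 were lower in set 2 in all 6 groups, as were 19.5% of loci.

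The same difference was then fitted apart in untreated and in treated seedlings, a fit added after the data had been seen. In untreated seedlings HVA22D was lower in set 2, with a difference of -1.39 ± 0.07 (log2, SE, adjusted p = 0.000514). So were HVA22E, with -0.81 ± 0.11 (adjusted p = 0.00689), and HVA22F, with -0.81 ± 0.21 (adjusted p = 0.0307). HVA22B, at -0.68 ± 0.36, was not called (adjusted p = 0.184), and HVA22A and HVA22C were at -0.01 and 0.00. Thus 3 of 6 members were called lower in set 2 in untreated seedlings, against 15.2% of all loci. The call of HVA22F was lost when either array of untreated wild type, untreated gem1 or ABA-treated gem1 was left out, with adjusted p-values of 0.137, 0.153 and 0.051.

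With ABA, 0 of 6 members were called lower in limma, against 8.79% of loci. HVA22D then differed between the sets by -0.05 (95% interval -0.22 to 0.13), HVA22E by -0.37 (adjusted p = 0.0636) and HVA22F by -0.74 (adjusted p = 0.0539). The set difference of HVA22D in treated seedlings minus that in untreated ones was 1.34 ± 0.10 (SE, 95% interval 1.10 to 1.59, adjusted p = 0.00723), the only such call among the 6 members, against 0.641% of all loci. Its second feature gave 1.30 (adjusted p = 0.00597). Without either array of ABA-treated wild type the value was 1.39 and missed the threshold (adjusted p = 0.0585). The ABA-treated values of HVA22D lie near the top of the scale, and the part of that in the difference was not tested.

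In terms of the response, the ABA change of HVA22D was 0.66 to 1.02 over the 3 genotypes in set 1 (log2, mean 0.85) and 1.86 to 2.38 in set 2 (mean 2.20). For HVA22B it was 2.41 to 4.13 in set 1 and 4.32 to 4.58 in set 2, and for HVA22E 0.80 to 1.23 and 1.16 to 1.71. The pairs of set 2 were above all pairs of set 1 for HVA22B and HVA22D, 2 of 6 members, a pattern that 8.65% of all loci showed. For HVA22B and HVA22E the test of this difference was not passed, at 1.14 ± 0.51 (adjusted p = 0.518) and 0.45 ± 0.16 (adjusted p = 0.357).

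The seed storage and oil body markers moved with the replicate sets as well. Their list mean was 9.34 to 10.11 on the arrays of set 1 and 10.21 to 12.14 on those of set 2, and 6 of the 9 were higher in set 2 by the test, against 26.1% of all loci, with a median difference of 1.07 (log2) over the 9. Single values of these 9 markers ran from 7.74 to 15.56, where the lowest value on any array was 6.99. The list mean of the leaf markers was 14.71 to 14.83 in set 1 and 14.92 to 15.10 in set 2. Of these markers 1 of 5 was called higher in limma, CAB2 (0.85, adjusted p = 0.00326), against 26.1% of all loci. The median difference over the 5 was 0.04. Of the root markers 1 of 5 was called lower, PHO1 (-0.31, adjusted p = 0.00877), against 21.0% of all loci. The seed list, and CAB2 among the leaf markers, were higher in the set where HVA22E and HVA22F were lower. The part of these markers in the set differences was not tested.

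**Figure D4:**
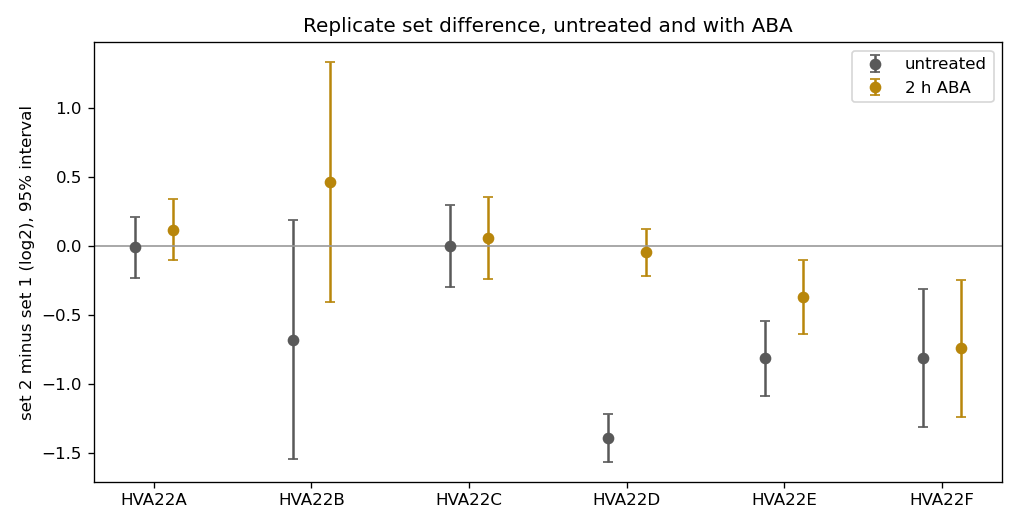
Replicate set 2 minus set 1 in log2 value (vertical axis) for each member, in untreated and in ABA-treated groups, with points for the mean over the 3 genotypes and bars for its 95% interval from limma. HVA22D is at -1.39 without ABA and at -0.05 with it, while HVA22F is at -0.81 and -0.74.

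The transcripts whose profiles over the 12 arrays were most like those of the members were looked up among 1406 loci with a symbol and an SD of at least 0.5, as a description over arrays that share treatments and replicate sets. For HVA22B they were LTI65 (Pearson r = 0.994), also known as RD29B and a standard ABA-responsive gene, SOM (0.993), a zinc finger regulator of light-dependent germination, SAG29 (0.990), a sugar transporter of the SWEET family, DAA1 (0.988) and NADP-ME1 (0.987), a malic enzyme. For HVA22D they were HSFA6B (0.993), a heat stress transcription factor, NAC074 (0.991) and HAI1 (0.990), a protein phosphatase 2C of ABA signalling. For HVA22E they were CIPK16 (0.989), a protein kinase that works with calcineurin B-like calcium sensors, LRL1 (0.988) and MYB14 (0.986), both transcription factors. The ABA changes of these loci lay between 0.77 and 5.22 (log2) over the 3 genotypes.

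The other members had other neighbours. HVA22F was closest to arpc2b (0.951), which encodes a subunit of the actin-nucleating ARP2/3 complex, emb1353 (0.945) and LAC6 (0.945), a laccase. HVA22A was closest to M17 (0.770), RTNLB13 (0.756) and ATOEP16-2 (0.743), and HVA22C to SESA5 (0.706), PAP85 (0.594) and SESA2 (0.576). SESA2 and SESA5 encode seed storage albumins and PAP85 a vicilin-like storage protein. The ABA change of SESA5 was 1.88 in wild type, -0.37 on the arrays labelled gem1 and -0.14 in GEMoe (log2), and that of M17 was 2.12, 0.29 and 0.19.

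The arrays hold 12 loci annotated as HVA22. Besides the 6 members these are HVA22G, HVA22H, HVA22J, HVA22K, AT5G42560 and a pseudogene, AT5G06278, whose values lay between 7.84 and 8.36 and which was not in the comparison list. In limma 0 of the 5 genes other than the pseudogene were called for ABA in any genotype, with or without the replicate block. Of all loci 1.06% to 1.19% were called higher, and 3.33% to 3.72% with the block, so a count of 0 of 5 says little. The median ABA changes of the 5 were 0.16, -0.01 and 0.03 (log2, wild type, gem1 and GEMoe). The 2 with the largest change in wild type were HVA22H at -0.38 ± 0.28 and HVA22K at 0.30 ± 0.17 (log2, SE). None was called in a contrast of genotypes either, where 0% to 0.00306% of all loci were called. Between the replicate sets 3 of 5 were lower in set 2 (21.0% of all loci): HVA22G with -0.52 ± 0.08 (adjusted p = 0.00433), HVA22H with -0.40 ± 0.06 (adjusted p = 0.00412) and HVA22K with -0.20 ± 0.06 (adjusted p = 0.0309). HVA22G, for example, was at 10.18 and 9.35 in untreated wild type and at 10.09 and 9.78 with ABA.

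**Figure D5:**
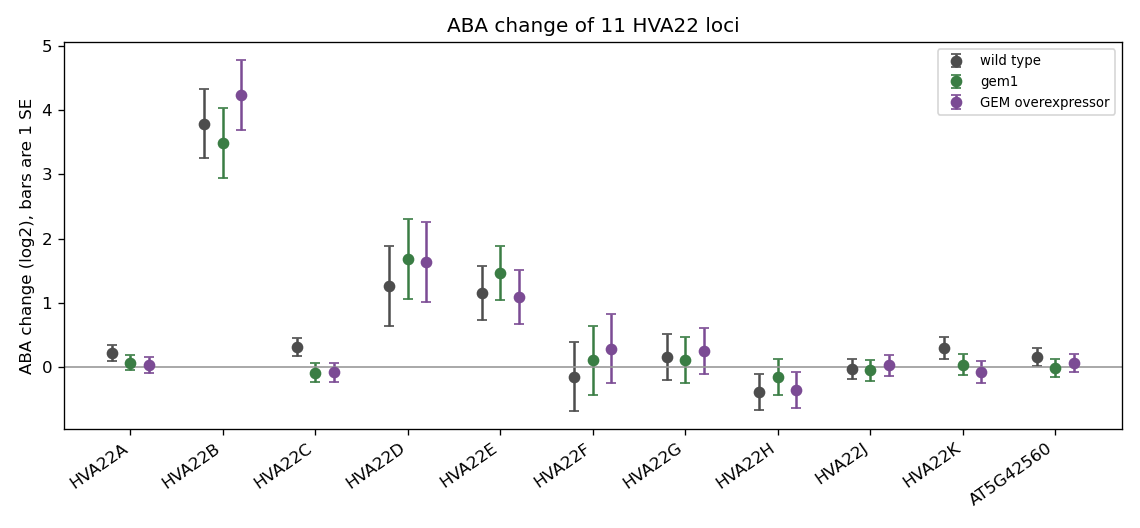
ABA-treated minus untreated log2 value (vertical axis) of HVA22A to HVA22F and of the 5 other HVA22 loci in wild type, gem1 and GEMoe, with points for the contrast and bars for its SE without the replicate block. HVA22B, HVA22D and HVA22E lie above 1 in every genotype, whereas the 5 other loci lie between -0.38 and 0.30.

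Other genes that shape the ER, namely reticulons, the RHD3 GTPases and Lunapark relatives, were compared as a list of 15. In limma 0 of 15 were called for ABA in any genotype, where 1.06% to 1.19% of all loci were called higher and 0.273% to 0.365% lower. With the replicate block 1 of 15 was called higher on the arrays labelled gem1, against 3.72% of all loci, and 0 of 15 in the other genotypes. Their median ABA changes were 0.01, 0.02 and 0.06 (log2). Between replicate sets the reticulons RTNLB13 (0.84, adjusted p = 0.0146) and AT4G01230 (0.58, adjusted p = 0.00365) were higher in set 2, and the reticulon AT3G18260 (-0.68, adjusted p = 0.00232) and RL2, an RHD3-like GTPase (-0.39, adjusted p = 0.0024), were lower. That is 2 of 15 in each direction, a smaller share than the 26.1% of all loci that were higher and the 21.0% that were lower.

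The AREB/ABF factors, bZIP proteins that bind ABA-responsive elements and activate ABA-induced genes, were the list in which most members were higher with ABA. In each genotype ABI5, ABF2 and ABF4 passed the threshold, 3 of 5, where 1.06% to 1.19% of all loci were called higher, and 4 of 5 did with the replicate block, against 3.33% to 3.72%. In wild type the ABA changes were 2.51 ± 0.38 for ABI5, 1.18 ± 0.20 for ABF2 and 0.83 ± 0.13 for ABF4 (log2, SE). The list's median change was 1.16, 1.04 and 1.15 in wild type, gem1 and GEMoe. ABI5 was lower in set 2 over all groups, with a difference of -0.46 (adjusted p = 0.0365), 1 of 5 factors against 21.0% of all loci. In untreated seedlings 3 of 5 factors were lower in set 2, against 15.2% of loci: ABI5 (-0.80, adjusted p = 0.00748), ABF3 (-0.56, adjusted p = 0.0132) and ABF2 (-0.37, adjusted p = 0.0162). With ABA none of the 3 was called, at -0.12, 0.05 and 0.14. The change of the set difference with ABA was 0.68, 0.61 and 0.51 for ABI5, ABF3 and ABF2, the same direction as for HVA22D, and missed the threshold for each (adjusted p = 0.140, 0.132 and 0.0855).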

How the data were processed

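Each deposited file lists a log2 value for every transcript feature. RMA, in no stated version, is the authors' processing step that the submitters' processing notes name. The log2 scale was read from the range of the values. The number of probes per feature (1 to 4), an annotation of another kind, is as deposited per the file headers. The table of the whole series and the files of single arrays differed by at most 0, and 0 columns were left unmapped. Background and saturation flags were not used here, so only the number of arrays states the precision.

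The feature with the highest mean over the 12 arrays stood for a locus (3602 loci had several). The 6 group means were fitted to all loci with limma 3.58.1 in R 4.3.3 (lmFit, eBayes, no trend, 6 residual degrees of freedom), without a filter, two-sided, with Benjamini-Hochberg adjustment over 32627 loci and a threshold of 0.05. The replicate number was added as a block (5 residual degrees of freedom), and as a contrast of its own. Same-numbered samples deviated together in all 15 pairs of groups (correlation 0.436 to 0.882, median 0.709), so the numbers were taken to pair the samples. The p-values measure the spread between these samples. The fit without the block was run on simulated data, with noise drawn independently for each array and no shift between replicate numbers. Of 200 loci changed by 2 (log2, up or down) in ABA-treated wild type, 146 were called, with 10 false calls. The real arrays deviate together by replicate number, so this does not show how the fit behaves on them. Tables and figures were made with Python 3.11.15, pandas 2.3.3, numpy 2.4.6 and matplotlib 3.10.9.

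The members, the comparison lists and the marker lists were chosen with earlier results of these data known. Named genes were the 6 members, the 5 loci most correlated with HVA22B and 3 with each other member (symbol, SD of at least 0.5), and of each comparison list every gene past the threshold in a contrast, or else the 2 with the largest wild-type ABA change. Alternatives were the block, a trended prior, fits on the groups of a contrast alone, a filter on the dimmest 30% of loci, median scaling, the other feature and leaving out each array. Symbols came from the array annotation and the RefSeq gene table of assembly TAIR10.1, used for names only.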

Additional observations from a re-analysis of the deposited data

Results flagged for a closer look

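HVA22D stood out by a difference between the replicate sets in its ABA change. The change was larger in set 2 than in set 1 by 1.34 on the log2 scale (SE 0.10, limma adjusted p = 0.00723), in a fit added after the data had been seen. Of all loci 0.641% were called higher in that fit. In the same values all 3 pairs of set 2 were above all 3 of set 1, as for 8.65% of all loci. Without either array of ABA-treated wild type the difference was 1.39 and missed the threshold. The treated values lay near the top of the scale, and the part of that was not tested. The sets differed by -1.39 in untreated seedlings and by -0.05 with ABA.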

How the results depend on the processing

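With the replicate block, 2 members in place of 1 were past the threshold and higher with ABA in each genotype, and over all loci 1963, 1811 and 1910 in place of 446, 475 and 506 were called in either direction in wild type, gem1 and GEMoe. A fit on the groups of a contrast alone, which estimates the spread from fewer arrays, called 0 members for ABA in each genotype. With 1 array left out the count was 0 to 1 in each genotype, and 0 to 2 with the block kept, an alternative chosen after seeing the data. These counts are no test of the members. Only the block on all arrays has the number of all loci called beside it. From the other member counts of this section nothing particular to the members is read. The ABA change of HVA22B stayed between 2.56 and 4.46, that of HVA22D between 0.59 and 2.38 and that of HVA22E between 0.68 and 1.86. None of the 48 genotype and interaction differences was called under any alternative (lowest adjusted p 0.882), but 37 changed sign when some array was left out. Between replicate sets, 1 of 5 members was lower without the dimmest 30% of loci, a filter that removes HVA22F, and 2 to 3 were called with an array left out. HVA22D was called there without either array of ABA-treated GEMoe (-0.88, adjusted p = 0.0395). Of the set differences with ABA, 1 was called with a trended prior (HVA22F, adjusted p = 0.0242) and 0 to 1 with an array left out, and the change of HVA22D between treatments was called or lost (0 to 1) in the same way. Without either array of untreated GEMoe, HVA22B passed in untreated seedlings (-1.13, adjusted p = 0.0376). The causes were not tested. Groups of 2 limit every interval, and HVA22D near the top and HVA22F near the bottom of the scale limit what their values can show.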
